A study of Mus musculus with 48 samples.

Results

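The 43 genes described here are the G1/S and DNA replication genes, chosen by name from a list of symbols and found by their Ensembl identifiers among the 36854 genes of the deposited count table. The list was drawn up with earlier results of these data known, and all 43 were found and passed the filter on low counts in every fit. They fall into 8 roles. The G1/S switch has 5 genes (Ccne1, Ccne2, Cdk2, E2f1 and E2f2) and origin licensing has 4 (Orc1, Orc6, Cdc6 and Cdt1). The MCM2-7 helicase has 6 (Mcm2 to Mcm7), and helicase activation has 5 (Mcm10, Cdc45, Gins1, Gins2 and Gins3). Polymerases and primase account for 7 (Pola1, Pola2, Pold1, Pole, Pole2, Prim1 and Prim2), and the sliding clamp, its loader, single-strand binding and strand joining for 8 (Pcna, Rfc2 to Rfc5, Rpa2, Fen1 and Lig1). Nucleotide supply has 4 (Rrm1, Rrm2, Tyms and Tk1), and chromatin and histone supply has 4 (Uhrf1, Slbp, Chaf1a and Chaf1b).

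As background, cells leave G1 when cyclin-dependent kinases phosphorylate the retinoblastoma protein and release E2F transcription factors, which switch on cyclin E and many genes of DNA synthesis. The origin recognition complex, Cdc6 and Cdt1 load the ring-shaped MCM helicase onto origins during G1, and Mcm10, Cdc45 and the GINS complex turn it into a moving replicative helicase at the start of S phase. DNA polymerase alpha with primase starts each strand, polymerases delta and epsilon extend it on the PCNA clamp, and Fen1 and Lig1 join the lagging strand. Ribonucleotide reductase, thymidylate synthase and thymidine kinase supply the nucleotides. After DNA damage, p53 activates Cdkn1a, whose product p21 inhibits cyclin E with CDK2 and so holds cells before S phase. In tumours the summed RNA of these genes is widely read as a proliferation signal.

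Messenger RNA was measured by bulk RNA-seq in 48 mouse soft-tissue sarcomas, 32 primary tumours and 16 allografts, in strain background 129/SvJae. Primary p53/MCA sarcomas were induced in p53FL/FL mice aged 6 to 10 weeks, by Adeno-Cre injected into the gastrocnemius muscle and then 300 µg of the carcinogen MCA. Cre acts only where the virus enters, so host cells in these tumours keep p53. Allografts all came from cell line 402230, placed in the same muscle of syngeneic mice of an age the labels do not give, so that these 16 tumours model 1 line. Every mouse received 200 µg of antibody into the peritoneum, either muDX400, a murine antibody that blocks the T cell receptor PD-1, or an isotype control. Directly afterwards the whole left hind limb was given 0 or 20 Gy, and the tumour was taken on day 3. Each of the 4 treatment groups held 8 primary tumours or 4 allografts, so the control of every comparison by dose carried an antibody injection as well. Depth was 31.8 to 54.01 M counts per tumour (median 41.2 M), and a member had between 68 and 11002 counts in a tumour.

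Levels are in CPM, a gene's share of all counts of its library on a fixed scale that is the same for every tumour, with library sizes corrected by edgeR's TMM factors over all 48 tumours. A gene is called when edgeR's quasi-likelihood test gives a Benjamini-Hochberg adjusted p below 0.05 over all genes tested, and each change is the difference of group levels on the log2 scale ± its standard error (SE). Of 10 mesenchymal and matrix genes expected of a sarcoma, 10 exceeded 1 CPM in every tumour. Trp53, the deleted gene, was at 19.9 to 62.7 CPM over the 48 tumours, and its count sums the whole gene and all cells, so it does not check the deletion. Cdkn1a separated the doses by its means, from 47.2 ± 17.2 CPM to 216.8 ± 33.4 CPM in the isotype primaries (log2 change 2.22 ± 0.25, adjusted p = 1.95e-06) and from 57.6 ± 18.9 CPM to 196.4 ± 21.4 CPM in the isotype allografts (log2 change 1.79 ± 0.26, adjusted p = 0.00174). A single library went against that pattern: the library labelled replicate 5 of the irradiated anti-PD-1 primaries had 76.1 CPM of Cdkn1a, and the other 7 of its group had 152 to 454 CPM. Its summed leukocyte genes (789.7 CPM) and macrophage genes (896.4 CPM) were the lowest of the 32 primaries, and whether its label is right could not be checked.

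Of the 48 tumours, 10 were the lowest or the highest of their group in at least 23 of the 43 members. Replicate 6 of the unirradiated anti-PD-1 primaries was the highest in 41, and the library labelled replicate 5 of the irradiated anti-PD-1 primaries in 23. Replicate 7 of the unirradiated isotype primaries was the lowest in 28. Among the irradiated isotype primaries, replicate 3 was the lowest in 35 members and replicate 8 the highest in 31. Replicate 4 of the irradiated anti-PD-1 primaries was the lowest in 39, with 8.79% of its counts in 12 skeletal muscle genes, and of the irradiated anti-PD-1 allografts replicate 2 was the lowest in 40 and replicate 1 the highest in 28. Of the irradiated isotype allografts replicate 1 was the highest in 25 and replicate 3 the lowest in 24. Fits that leave out 1 tumour at a time are given beside the comparisons.

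E2F factors are known to act at promoters of G1/S genes, so the promoters were searched for their letters. RefSeq promoter windows, which run from 250 bases before to 50 bases after an annotated start in build GRCm38.p6, were found for 36 of the 43 members. E2F-type letters were searched as TTTCCCGC, TTTGGCGC, TTTCGCGC or TTTGCCGC on both strands, where matches may overlap each other. They occurred in 16 of 36 members (44.4%), and in 704 of 27025 genes with a window (2.61%). Of the other gene lists described here, 10 of 40 further replication genes (25%), 7 of 22 further G1/S control genes (31.8%) and 1 of 21 G2/M genes (4.76%) held them. The letters TTTGAA or TTCGAA, a core of the CHR element known from mitotic genes, went the other way: 16 of 21 G2/M genes (76.2%), 7 of 36 members (19.4%) and 21.7% of all genes. The 5 stretches of 90 bases that follow are shown because they hold the E2F-type letters, in capitals, for members of different roles: Mcm5 and Mcm6 of the helicase, Cdc6 of licensing, Pola1 of the polymerases and Uhrf1 of chromatin. In build GRCm38.p6 they lie at chr8:75109331-75109420 (Mcm5, plus strand), chr1:128359751-128359840 (Mcm6, minus strand), chr11:98907988-98908077 (Cdc6, plus strand), chrX:93632229-93632318 (Pola1, minus strand) and chr17:56304103-56304192 (Uhrf1, plus strand), each written 5′ to 3′ on the gene's strand and touching no annotated exon. In Mcm5 and Mcm6 the capitals span 2 overlapping matches, 1 on each strand.
Mcm5: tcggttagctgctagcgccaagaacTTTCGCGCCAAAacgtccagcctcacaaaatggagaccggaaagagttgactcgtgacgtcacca
Mcm6: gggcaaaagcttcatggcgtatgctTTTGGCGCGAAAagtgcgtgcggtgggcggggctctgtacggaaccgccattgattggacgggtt
Cdc6: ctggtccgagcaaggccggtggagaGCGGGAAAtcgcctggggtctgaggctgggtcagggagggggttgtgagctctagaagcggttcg
Pola1: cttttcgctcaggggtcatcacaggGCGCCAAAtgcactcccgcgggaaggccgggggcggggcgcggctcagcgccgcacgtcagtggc
Uhrf1: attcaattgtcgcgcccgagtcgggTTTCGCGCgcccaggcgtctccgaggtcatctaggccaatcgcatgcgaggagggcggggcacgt
Of the 7 genes called after 20 Gy in the primaries under either antibody, Pola1, Uhrf1 and Mcm5 hold these letters and Rrm1, Rrm2 and Tk1 do not hold them in this window, and Prim2 was not searched. A match describes letters in a window and is not evidence of binding.

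Before irradiation all 43 genes were expressed in every tumour. Levels per kilobase divide by the union of all exons annotated to a gene in GENCODE M21. That union can be longer than the transcript in use, so the order of genes depends on the annotation. Per kilobase of exon, the clamp gene Pcna was highest, at 66.9 ± 8.25 CPM per kb in the isotype allografts (mean ± SD, n = 4) and 54.3 ± 12.6 in the isotype primaries (n = 8). Rrm2, the small subunit of ribonucleotide reductase, came next in the allografts at 51.1 ± 7.43 CPM per kb. The 6 MCM2-7 subunits, which form 1 ring in equal numbers, spanned 14.2 to 28.7 CPM per kb in the allografts and 15.99 to 32.2 in the primaries. In the allografts Pole, the catalytic subunit of polymerase epsilon, was lowest at 2.97 ± 0.262 CPM per kb, followed by Gins3, Mcm10, Pola1, the origin recognition gene Orc1 (3.53 ± 0.538), Pole2 and E2f2. In the primaries E2f2 was lowest at 2.12 ± 0.416 CPM per kb, followed by Orc1 (2.57 ± 0.429), Pole2, Gins3, Mcm10 and Pole (3.74 ± 1.20). Pole and Gins3 (2.99 ± 0.143 CPM per kb in the allografts) did not differ beyond their spread, nor did Mcm5 (28.7 ± 4.97) and Mcm6 (28.0 ± 2.98).

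**Figure D1:**
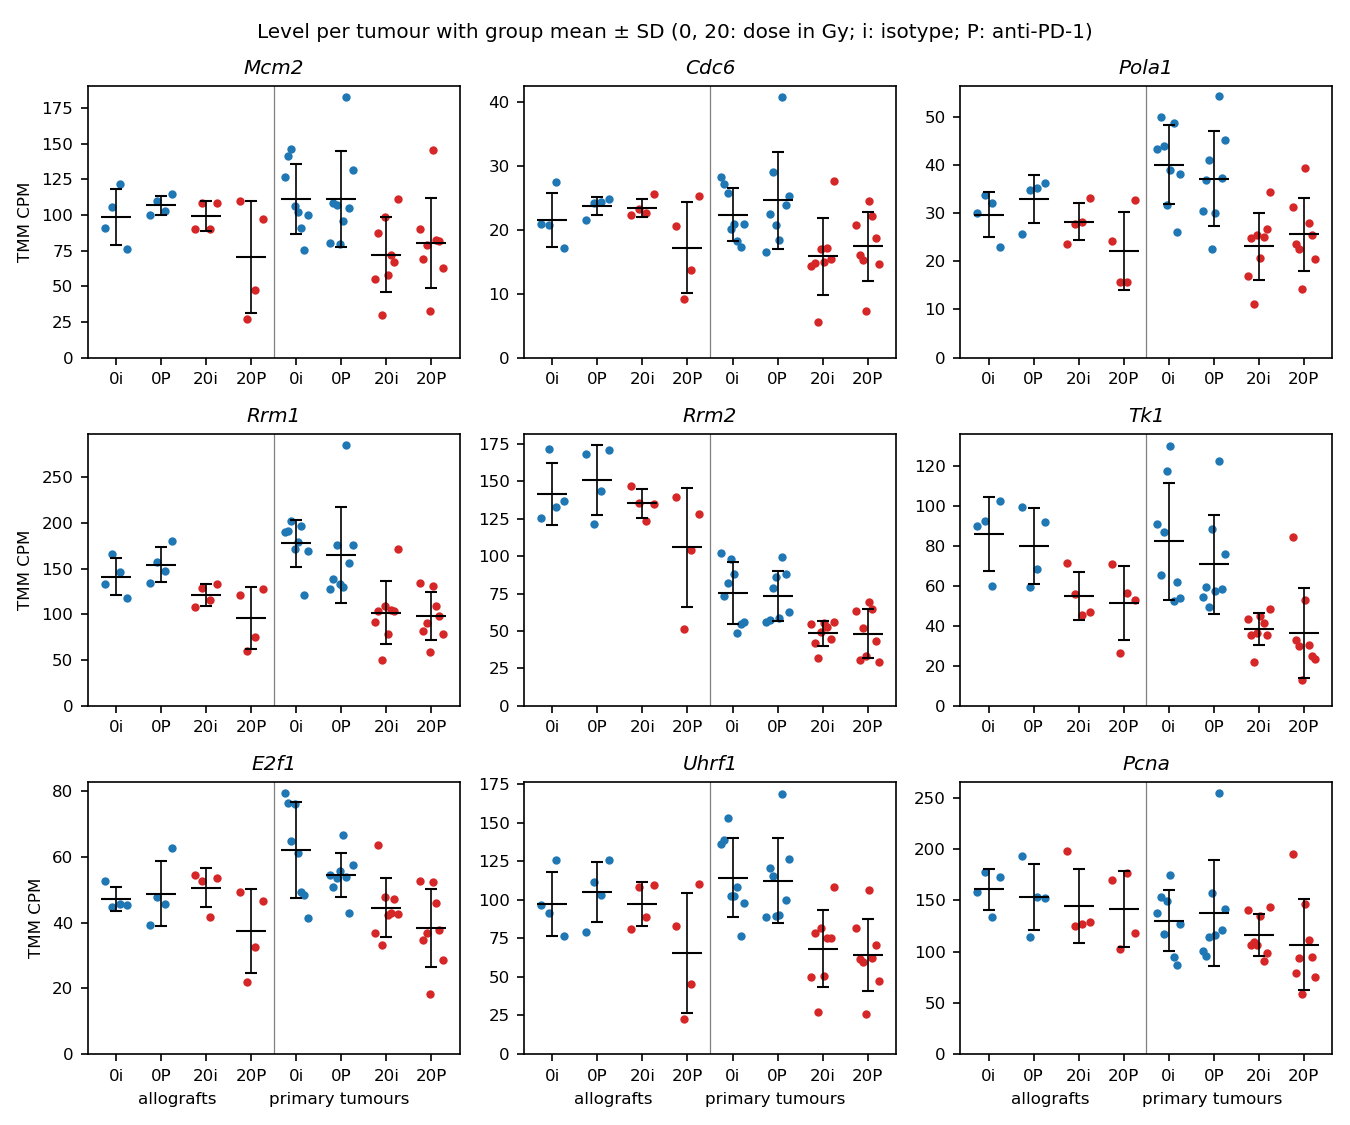
Levels of 9 of the 43 genes in CPM (y axis) in each of the 8 groups (x axis), with 1 point per tumour and the mean ± SD as bars. Blue stands for 0 Gy and red for 20 Gy. In Tk1 the irradiated isotype primaries lie below every unirradiated one, and in Rrm2 the unirradiated allografts lie above the unirradiated isotype primaries.

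In the primary tumours given isotype antibody, 20 Gy lowered 5 of the 43 genes and raised none: Rrm1, Tk1 and Rrm2 of nucleotide supply, the polymerase gene Pola1 and the chromatin gene Uhrf1. They were 1.54 to 2.11 times lower. Of all 17770 genes tested, 6.64% were called lower and 7.85% higher (14.5% in either direction), against 11.6% of the members. A further 36 members had negative log2 changes that did not pass the test, so that 41 of 43 were negative, with a median of -0.38 over the members and -0.02 over all genes. Over the 16 leave-outs the median of the members ran from -0.43 to -0.30. At an unadjusted p below 0.05 there were 15 members (34.9%), where 28.8% of all genes were. In bulk tumour RNA, fewer cells in S phase and less RNA of these genes per cell cannot be told apart.

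Nucleotide supply had the most calls of any role, 3 of 4. Positions of genes are from GENCODE M21 on GRCm38. Tk1 (ENSMUSG00000025574, chr11:117815526-117826092, minus strand) encodes cytosolic thymidine kinase, which salvages thymidine and is degraded after mitosis. Its lowest, median and highest levels were 52.2, 76.2 and 130.1 CPM at 0 Gy and 22.1, 39.0 and 48.7 CPM at 20 Gy. Every irradiated tumour was below every unirradiated one, which held for 0.416% of all genes tested and for no other member. The mean went from 82.4 ± 29.4 CPM to 38.5 ± 8.17 CPM (log2 change -1.08 ± 0.28, adjusted p = 0.00805). Rrm1 (ENSMUSG00000030978, chr7:102441695-102469771, plus strand) encodes the large subunit of ribonucleotide reductase. At 0 Gy it ran from 121.5 CPM, in replicate 7, through a median of 184.2 to 202.5, and the 20 Gy tumours had 50.1, 103.3 and 171.9 CPM as lowest, median and highest. The groups overlapped, and the means were 177.5 ± 25.5 CPM and 101.5 ± 34.4 CPM (log2 change -0.79 ± 0.19, adjusted p = 0.00637). Rrm2 (ENSMUSG00000020649, chr12:24708241-24714146, plus strand), the subunit whose level limits the enzyme in S phase, had 49.0, 77.7 and 101.96 CPM at 0 Gy and 32.1, 50.9 and 56.2 CPM at 20 Gy, an overlap of the groups, with log2 change -0.62 ± 0.19, adjusted p = 0.029. Tyms, thymidylate synthase, did not pass the test: 33.2, 59.1 and 86.0 CPM at 0 Gy and 29.5, 38.8 and 66.0 CPM at 20 Gy (log2 change -0.46 ± 0.25, adjusted p = 0.219).

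Among the polymerases, Pola1 (ENSMUSG00000006678, chrX:93304767-93632155, minus strand), the catalytic subunit of polymerase alpha, had 26.1, 41.1 and 49.9 CPM at 0 Gy and 11.1, 24.96 and 34.3 CPM at 20 Gy. Every irradiated tumour was below the unirradiated median, although the groups overlapped, and the mean was 1.71 times lower (log2 change -0.77 ± 0.20, adjusted p = 0.00868). Its partner Pola2 had 36.7, 45.7 and 61.5 CPM at 0 Gy and 21.0, 35.7 and 82.1 CPM at 20 Gy (log2 change -0.21 ± 0.20, adjusted p = 0.521), and the highest of those, replicate 8, was an irradiated tumour above all 8 controls. The primase subunit Prim2, named here after its value was seen, missed the threshold (log2 change -0.51 ± 0.19, adjusted p = 0.0733). All 7 genes of this role had negative values, with a median of -0.38.

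Of the chromatin genes, Uhrf1 (ENSMUSG00000001228, chr17:56303321-56323486, plus strand), which brings the maintenance methyltransferase Dnmt1 to newly copied DNA, had 76.8, 105.3 and 152.9 CPM at 0 Gy and 27.6, 75.3 and 108.3 CPM at 20 Gy. The groups overlapped, and the test gave log2 change -0.72 ± 0.23, adjusted p = 0.029. Chaf1b, a subunit of the chromatin assembly factor that deposits histones behind the fork, had 14.1, 22.3 and 31.6 CPM and 8.25, 15.4 and 24.8 CPM (log2 change -0.49 ± 0.27, adjusted p = 0.238). The 4 genes of the role had a median of -0.56.

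None of the 6 helicase genes passed the test in this comparison, at values of -0.31 to -0.60 with a median of -0.47. Mcm2 had the smallest p of the 6: 75.3, 104.3 and 146.3 CPM at 0 Gy and 29.7, 69.4 and 110.8 CPM at 20 Gy (log2 change -0.60 ± 0.23, adjusted p = 0.0801). Mcm3 had the largest p, with 77.8, 117.8 and 149.5 CPM and 41.6, 90.4 and 166.7 CPM (log2 change -0.31 ± 0.22, adjusted p = 0.35). In both genes the lowest irradiated tumour was replicate 3, and the groups overlapped. Helicase activation had 0 of 5 calls, a median of -0.31 and values such as log2 change -0.41 ± 0.25, adjusted p = 0.28 for Cdc45, whose product rides with the MCM ring. Mcm10, which helps to open the origin, had 17.1, 28.8 and 39.4 CPM and 8.84, 23.2 and 55.8 CPM (log2 change -0.15 ± 0.28, adjusted p = 0.756), and again replicate 8 at 20 Gy exceeded all controls. In origin licensing, the helicase loader Cdc6 had 17.4, 21.0 and 28.2 CPM and 5.57, 15.2 and 27.7 CPM (log2 change -0.47 ± 0.23, adjusted p = 0.167), and Orc1 had 6.83, 8.67 and 11.1 CPM and 5.97, 7.55 and 13.3 CPM (log2 change -0.04 ± 0.28, adjusted p = 0.936). The sign of Orc1 turned when single tumours were left out.

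In the clamp and strand-joining role, 0 of 8 genes were called and the median was -0.33. Lig1, the ligase of the lagging strand, had 59.2, 83.8 and 106.7 CPM at 0 Gy and 25.2, 54.4 and 102.8 CPM at 20 Gy (log2 change -0.56 ± 0.21, adjusted p = 0.0771). Pcna overlapped almost wholly between the doses, with 86.7, 132.6 and 175.1 CPM and 91.2, 107.8 and 143.6 CPM (log2 change -0.14 ± 0.21, adjusted p = 0.69). Rfc3 of the clamp loader was 1 of 2 members with a positive value (log2 change 0.20 ± 0.26, adjusted p = 0.633). The other was E2f2, an activator E2F of the G1/S switch, at 6.71, 10.3 and 13.6 CPM and 8.68, 11.8 and 25.8 CPM (log2 change 0.50 ± 0.25, adjusted p = 0.186). E2f1, the activator studied most, had 41.6, 63.1 and 79.7 CPM and 33.3, 42.9 and 63.7 CPM (log2 change -0.46 ± 0.17, adjusted p = 0.0562), and Ccne1, cyclin E1, had 19.5, 27.0 and 39.5 CPM and 13.9, 23.4 and 39.0 CPM (log2 change -0.23 ± 0.22, adjusted p = 0.509). In all, 0 of 5 genes of the switch passed, at values on both sides of 0.

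The number of calls rested partly on single tumours. Leaving out each of the 16 tumours in turn gave 3 to 11 members called, and Rrm1, Tk1 and Pola1 were called in all 16 of those fits. There were 11 calls without replicate 8 at 20 Gy, all lower, which added Mcm2, Mcm4, Mcm5, Lig1, Prim2 and Chaf1a. There were 3 without replicate 3 at 20 Gy and 3 without replicate 1 or without replicate 3 at 0 Gy, where Rrm2 and Uhrf1 no longer passed. Over the 16 leave-outs and 4 other settings (DESeq2, its size factors, no filter and the identifier digit) the adjusted p of Rrm2 ranged from 0.0165 to 0.0763 and that of Uhrf1 from 0.011 to 0.0708, each missing the threshold in 6 leave-outs. For Rrm2 these were replicates 1, 3, 4 and 5 at 0 Gy and 3 and 7 at 20 Gy, and for Uhrf1 replicates 1, 2 and 3 at 0 Gy and 1, 3 and 5 at 20 Gy.

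**Figure D2:**
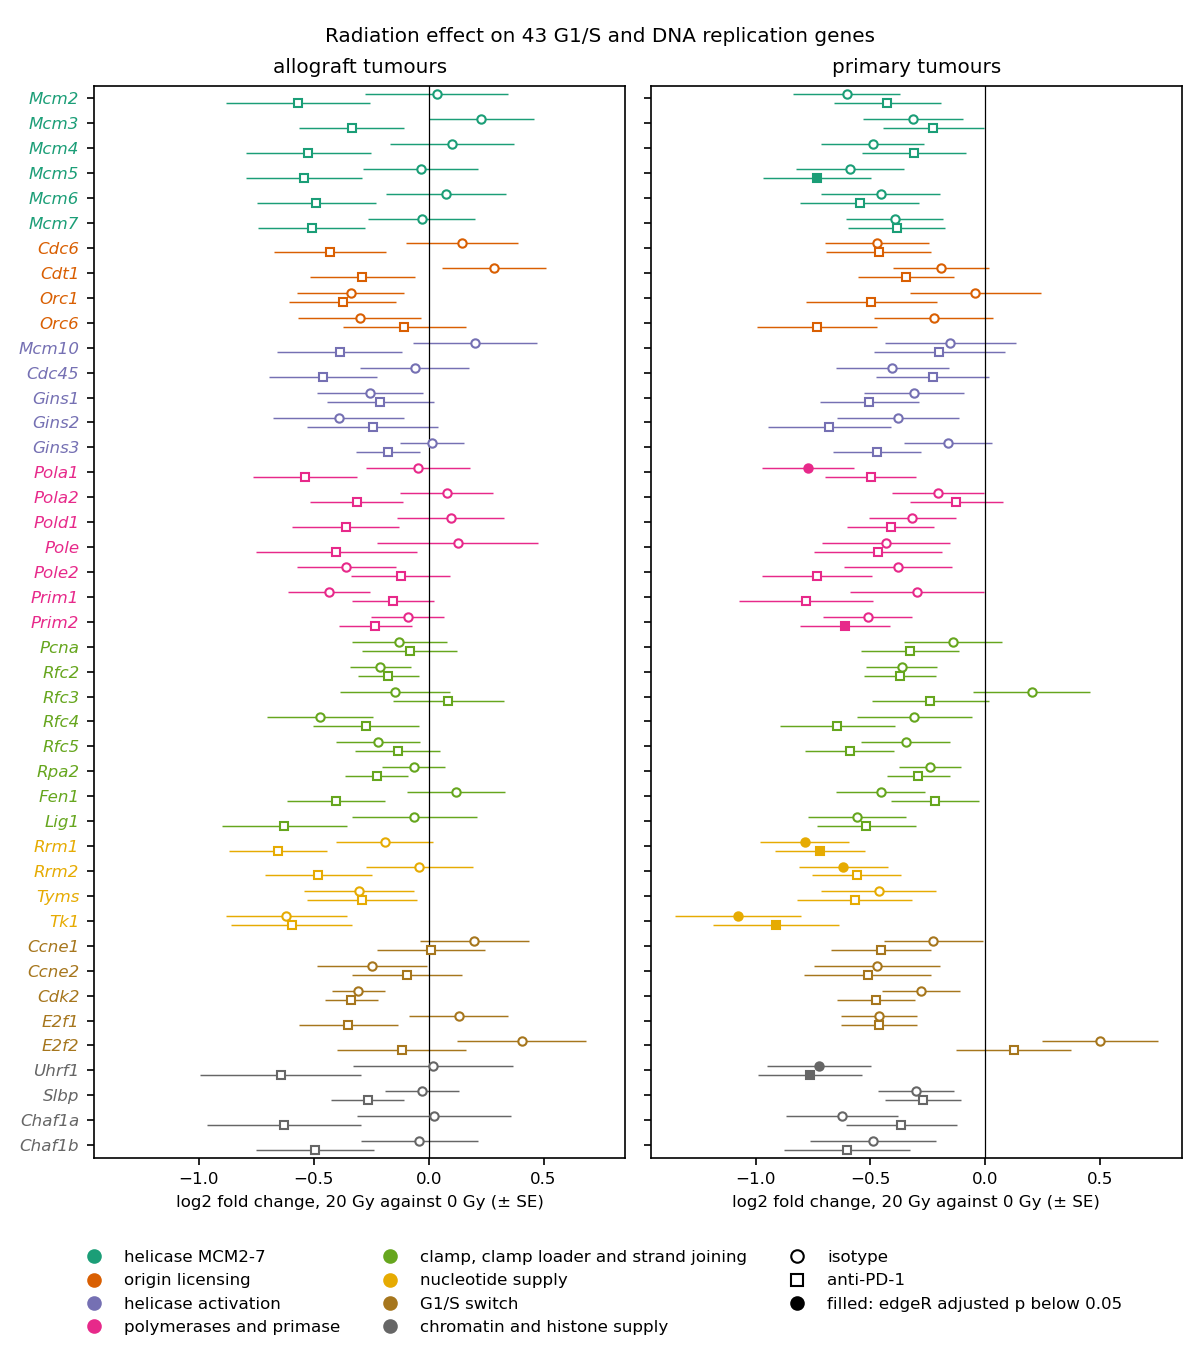
Log2 changes of the 43 genes for 20 against 0 Gy (x axis) in the 4 comparisons by tumour kind and antibody, with 1 point per gene, its SE as a bar, genes grouped by role and colours for the roles. Points lie around 0 in the isotype allografts and mostly below 0 in the other 3 comparisons, with Tk1 farthest down in the isotype primaries at -1.08.

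Under anti-PD-1 the irradiated primaries again had 5 members called, all lower: Rrm1, Tk1, Uhrf1, Prim2 and Mcm5. The background was 1.86% of 17770 genes called lower and 6.06% higher (7.92% in either direction). The median of the members was -0.47, against 0.02 over all genes, 42 of 43 were negative and 25 (58.1%) had an unadjusted p below 0.05, against 23.6% of all genes. Rrm1, Tk1 and Uhrf1 were called under both antibodies. The comparisons share no tumour, but both came from the same fit of all primaries. The spread in that fit was estimated from both sets of tumours, so the calls are not independent. With only the groups compared in the fit, fewer members were called under anti-PD-1. Rrm1 had 127.2, 147.05 and 285.1 CPM at 0 Gy and 58.3, 94.6 and 133.9 CPM at 20 Gy (log2 change -0.72 ± 0.19, adjusted p = 0.0207), where replicate 6 at 0 Gy was far above the next highest tumour. Tk1 had 49.7, 58.8 and 122.6 CPM and 12.9, 30.2 and 84.6 CPM (log2 change -0.91 ± 0.27, adjusted p = 0.0359), and its groups overlapped here. Uhrf1 had 88.5, 107.7 and 168.7 CPM and 26.2, 61.9 and 105.99 CPM (log2 change -0.77 ± 0.23, adjusted p = 0.0334). Prim2, the large primase subunit, had 24.7, 29.9 and 57.7 CPM and 9.79, 19.2 and 35.9 CPM (log2 change -0.61 ± 0.19, adjusted p = 0.0481), and the helicase subunit Mcm5 had 88.0, 104.04 and 260.9 CPM and 38.9, 68.3 and 108.1 CPM (log2 change -0.73 ± 0.23, adjusted p = 0.0486). In all 5 the doses overlapped, which they did in every member.

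These calls depended on replicate 6 at 0 Gy and replicate 5 at 20 Gy. Without replicate 6 at 0 Gy, 0 members were called and the median was -0.32. Without the library labelled replicate 5 at 20 Gy, which had little Cdkn1a, 13 were called and the median was -0.62. With both left out, a setting chosen after the data were seen, 3 were called (Rrm1, Uhrf1 and E2f1). There were 11 calls without replicate 1 at 20 Gy and 1, Rrm1, without replicate 3, 4, 6 or 8 at 20 Gy. Without replicate 2, 4, 7 or 8 at 0 Gy or replicate 2 or 7 at 20 Gy there were 2 or 3, Rrm1 among them. DESeq2 called 12. Pola1, called under isotype, had -0.50 here (adjusted p = 0.121), and Rrm2 -0.56 (adjusted p = 0.0692). E2f2 had the only positive value (0.12 ± 0.25, log2 change ± SE). The difference between the antibodies in the effect of dose was tested for every gene and was called for 0 of 43 members by edgeR, with 0 at an unadjusted p below 0.05 and 0 by DESeq2. Their median of that difference was -0.05, and it turned with single tumours, from -0.19 without the library labelled replicate 5 of the irradiated anti-PD-1 group to 0.05 without replicate 6 of the unirradiated one.

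In the isotype allografts, 0 of 43 members were called after 20 Gy by edgeR, where 0.744% of 17746 genes were called lower and 4.4% higher (5.14% in either direction). Their median was -0.04, against -0.0019 over all genes, and 26 of 43 were negative. The median was -0.11 without replicate 4 and -0.013 without replicate 3 at 0 Gy, and -0.15 with the first digit of the tumour identifier as a covariate. At an unadjusted p below 0.05 there were 3 members (Cdk2, Prim1 and Tk1), or 6.98% against 18.2% of all genes, and DESeq2 called 1 (Cdk2). Cdk2, the kinase partner of cyclin E, had 42.8, 39.1, 44.5 and 43.2 CPM in the 4 tumours at 0 Gy and 37.6, 33.6, 30.7 and 32.8 CPM at 20 Gy. Every irradiated value was below every control, which also held for 4.86% of all genes, and the test gave log2 change -0.31 ± 0.12, adjusted p = 0.161. Tk1 had 89.9, 92.3, 59.8 and 102.6 CPM at 0 Gy and 71.6, 56.0, 45.7 and 46.8 CPM at 20 Gy, with overlap (log2 change -0.62 ± 0.26, adjusted p = 0.22). The primase gene Prim1 had log2 change -0.44 ± 0.18, adjusted p = 0.202, and it was the 1 member called when replicate 1 at 20 Gy was left out. The other 7 leave-outs called 0.

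The other genes called in the primaries were near 0 in these allografts. Rrm1 had 133.1, 166.2, 145.9 and 118.4 CPM at 0 Gy and 108.02, 128.7, 115.3 and 132.8 CPM at 20 Gy (log2 change -0.19 ± 0.21, adjusted p = 0.707), and Pola1 had 30.0, 33.7, 32.03 and 23.0 CPM and 23.7, 27.8, 28.2 and 33.1 CPM (log2 change -0.05 ± 0.23, adjusted p = 0.947). Uhrf1 had 96.4, 91.3, 125.6 and 76.3 CPM and 81.1, 108.05, 89.1 and 109.8 CPM (log2 change 0.02 ± 0.35, adjusted p = 0.988), and Rrm2 had 125.2, 171.7, 132.8 and 137.1 CPM and 147.1, 135.8, 123.7 and 134.7 CPM (log2 change -0.04 ± 0.23, adjusted p = 0.958). The doses overlapped in each of the 4. Mcm2 was at 0.03 ± 0.31 and Mcm3 at 0.23 ± 0.23 (log2 change ± SE), Cdc6 at 0.15 ± 0.24, Pcna at -0.13 ± 0.21 and E2f1 at 0.13 ± 0.21. The signs of Mcm2, Pola1, Uhrf1 and Rrm2 turned when single tumours were left out. The first digit of the tumour identifier in the titles differed between these groups, being 5 in 4 of 4 tumours at 0 Gy and in 1 of 4 at 20 Gy. Xist exceeded 10 CPM in 1 of 4 and 3 of 4 there, and equally in the anti-PD-1 allografts. In the isotype primaries it did so in 5 of 8 at 0 Gy and 2 of 8 at 20 Gy. In the anti-PD-1 primaries the count was 3 of 8 at each dose. With the digit as a covariate 0 members were called in the isotype allografts, as with Xist. With the digit the signs of Mcm2, Uhrf1 and Pola2 turned.

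Under anti-PD-1 the irradiated allografts had 0 of 43 members called by edgeR, against 0.828% of all genes lower and 3.13% higher (3.96% in either direction), and DESeq2 called 2 (Rrm1 and Cdk2). The median was -0.34, against 0.02 over all genes, and 41 of 43 were negative. At an unadjusted p below 0.05 there were 7 members (16.3%), against 19.5% of all genes. Rrm1 had 133.9, 157.2, 146.8 and 179.8 CPM at 0 Gy and 121.3, 59.7, 75.1 and 127.3 CPM at 20 Gy, without overlap (log2 change -0.66 ± 0.21, adjusted p = 0.0995). Cdk2 had 37.3, 43.7, 42.9 and 40.9 CPM and 34.5, 28.9, 28.0 and 36.3 CPM, also without overlap (log2 change -0.34 ± 0.12, adjusted p = 0.12), in a comparison where 3.38% of all genes lay wholly below. Pola1 had 25.6, 34.7, 35.2 and 36.3 CPM and 24.2, 15.8, 15.8 and 32.7 CPM, with replicates 2 and 3 at 20 Gy lowest (log2 change -0.54 ± 0.23, adjusted p = 0.203). Leaving out 1 tumour at a time gave 0 calls in 7 of 8 fits and 3 (Rrm1, Cdk2 and Pola1) without replicate 4 at 20 Gy. The median of the members was -0.16 without replicate 2 at 20 Gy and -0.47 without replicate 4 at 20 Gy, the ends of its range over these fits. The test of the difference between the antibodies in the effect of dose called 0 members by edgeR, with 0 at an unadjusted p below 0.05 and 0 by DESeq2, at a median difference of -0.40 over the members and -0.04 over all genes. Over the leave-outs it was -0.54 to -0.22, the latter without replicate 2 of the irradiated anti-PD-1 group.

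Whether the effect of dose differed between primaries and allografts was tested in all 48 tumours. Under isotype the primary effect minus the allograft effect had a median of -0.35 over the members and -0.02 over all genes, and 35 of 43 were negative. Its leave-outs gave medians of -0.47 to -0.26. edgeR called 0 members, against 0.00517% of 19327 genes, 2 (4.65%, against 9.90% of all genes) had an unadjusted p below 0.05 and DESeq2 called 0. The difference was -0.73 ± 0.41 (log2 ± SE) for Uhrf1, -0.71 ± 0.33 for Pola1, -0.58 ± 0.32 for Rrm1, -0.57 ± 0.32 for Rrm2 and -0.45 ± 0.44 for Tk1. Under anti-PD-1 it had a median of -0.09, with 0 calls by edgeR or DESeq2 and 0 members at an unadjusted p below 0.05. That median ran from -0.33, without replicate 2 of the irradiated anti-PD-1 allografts, to 0.03, without replicate 4 of the same group, and 19 to 42 members were negative. The genes called in the primaries and not in the allografts were not shown to respond differently in the 2 tumour kinds.

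The combined treatment, 20 Gy with anti-PD-1, was also set against untreated controls, 0 Gy with isotype, which are the controls of the isotype comparison too. In the primaries 11 members were called, all lower, against 4.98% of all genes called lower and 8.78% higher (13.8% in either direction). They were Rrm1 (-0.84 ± 0.20, log2 change ± SE), Tk1 (-1.15 ± 0.28), Rrm2, E2f1 (-0.67 ± 0.17), Uhrf1, Mcm5, Gins2, Pola1, Pole2, Prim2 and Rfc5, at values of -0.61 to -1.15. E2f1 had 41.6, 63.1 and 79.7 CPM in the controls and 18.2, 37.3 and 52.6 CPM after the combination, with overlap (adjusted p = 0.00671). The other 31 negative values did not pass, E2f2 was positive (0.56 ± 0.25) and the median was -0.47, or -0.63 to -0.41 over the leave-outs. Without the library labelled replicate 5 of the combination group 22 members were called, and without replicate 1 of that group 17, of which 1 was higher (E2f2). The lowest counts were 6, without control replicate 5 or combination replicate 4 or 8, and 7, without control replicate 1 or 3 or combination replicate 3. Marker genes of other cells were called in the same comparison, higher for 6 of 8 leukocyte, 4 of 10 macrophage, 4 of 7 neutrophil and 1 of 8 B cell genes and lower for 1 of 10 mesenchymal genes, and their part in the members' levels was not tested. In the allografts 1 member was called, Cdk2 (log2 change -0.39 ± 0.12, adjusted p = 0.0451), where 2.23% of all genes were called lower and 7.43% higher (9.66% in either direction). Its 4 treated values were 34.5, 28.9, 28.0 and 36.3 CPM and lay wholly below the 4 controls, as did 5.35% of all genes. The call was lost in 7 of the 8 leave-outs, and without replicate 4 of the combination group there were 3 (Cdk2, Pola1 and Rrm1).

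Anti-PD-1 against isotype gave 0 called members in each of 4 comparisons by edgeR, in the allografts and in the primaries at 0 and at 20 Gy. No member had an unadjusted p below 0.05 in any of them, DESeq2 called 0 members, and 0% of all genes were called. The medians of the members were 0.04 and -0.27 in the allografts at 0 and 20 Gy and -0.03 and -0.10 in the primaries. Single tumours moved these medians. In the allografts they ran from 0.02 to 0.09 at 0 Gy and from -0.41 to -0.09 at 20 Gy, the last without replicate 2 under anti-PD-1. In the primaries they ran from -0.16, without replicate 6 under anti-PD-1, to 0.03, without replicate 3 under isotype, at 0 Gy. At 20 Gy they ran from -0.20, without the library labelled replicate 5 under anti-PD-1, to -0.02, without replicate 4 under anti-PD-1. Rrm1, for example, was at 177.5 ± 25.5 CPM under isotype and 165.1 ± 52.3 CPM under anti-PD-1 in the unirradiated primaries (log2 change ± SE -0.12 ± 0.19), and at 101.5 ± 34.4 CPM and 97.7 ± 26.2 CPM after 20 Gy (-0.05 ± 0.19).

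Untreated primaries and untreated allografts differed in 2 members, both lower in the primaries, against 3.99% of 17357 genes called lower and 6.03% higher (10% in either direction). Rrm2 had 125.2, 171.7, 132.8 and 137.1 CPM in the 4 allografts and 49.0, 77.7 and 101.96 CPM as lowest, median and highest of the 8 primaries. Every primary was below every allograft, as in 2.87% of all genes (log2 change -0.92 ± 0.19, adjusted p = 0.011), a level 1.89 times lower. E2f2 had 16.4, 14.2, 27.3 and 12.8 CPM in the allografts, with replicate 3 highest, and 6.71, 10.3 and 13.6 CPM in the primaries, with overlap (log2 change -0.78 ± 0.22, adjusted p = 0.0425). The other members were not lower as a group: 31 of 43 values were positive and the median was 0.12 (0.07 without primary replicate 3 to 0.18 without primary replicate 7), with 0.33 ± 0.15 for Rrm1, the partner of Rrm2, 0.43 ± 0.18 for Pola1 and 0.39 ± 0.17 for E2f1. Without allograft replicate 2 neither gene was called. Of the 12 leave-outs E2f2 was called in 2, and it was not called when no filter on low counts was applied. The 4 allografts are of 1 cell line, and what belongs to that line or to allografts in general cannot be told apart.

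**Figure D3:**
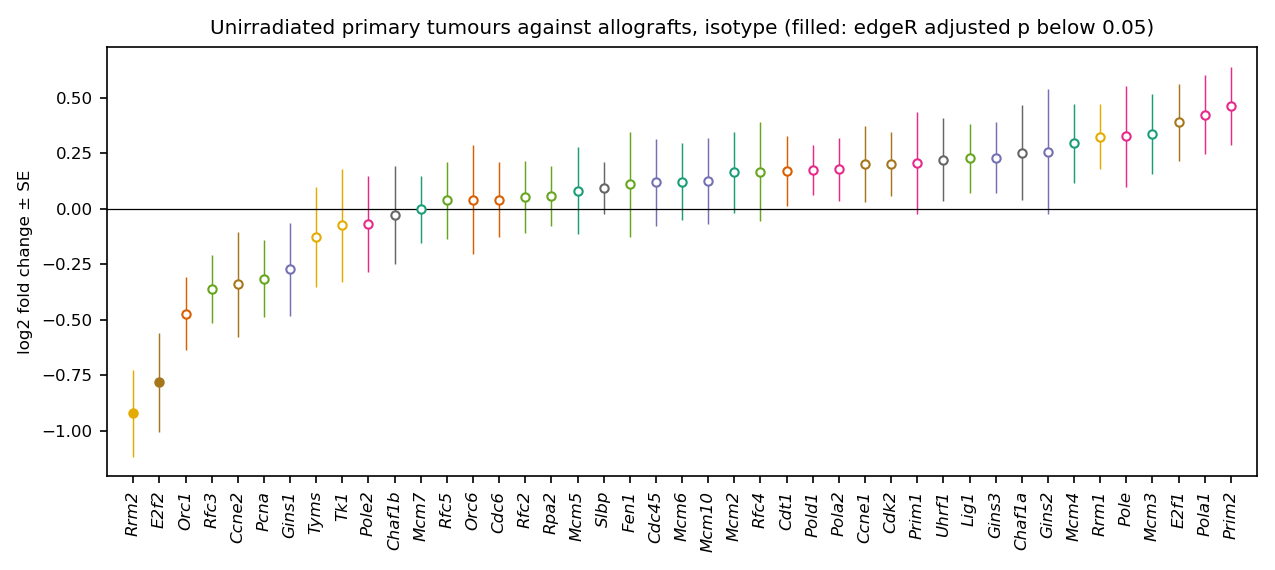
Log2 difference of untreated primaries minus untreated allografts (y axis) for the 43 genes (x axis), with 1 point per gene, its SE as a bar and colours for the roles. Rrm2 at -0.92 and E2f2 at -0.78 lie farthest below 0, and 31 genes lie above 0.

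Of 52 further replication genes, 4 (7.69%, beside 6.64% of all genes) were lower and 1 higher after 20 Gy in the isotype primaries, with a median of -0.26, and 1 lower (1.92%, beside 1.86%) and 1 higher under anti-PD-1 (-0.26). In the allografts 0 were lower and 1 higher under isotype (-0.11), and under anti-PD-1 0 were called by edgeR, at a smallest adjusted p of 0.0517 (median -0.22), where DESeq2 called 7 lower and edgeR with DESeq2-type size factors 1. Leave-outs, added for these lists after the data were seen, gave 0 to 13 lower calls in the isotype primaries (13 without replicate 8 and 0 without replicate 3 at 20 Gy) and 1 to 7 under anti-PD-1 (7 without replicate 1 at 20 Gy). In the allografts they gave 0 under isotype and 0 to 9 under anti-PD-1 (9 without replicate 4 at 20 Gy). Over the leave-outs the medians ran from -0.30 to -0.16, -0.36 to -0.14, -0.17 to -0.07 and -0.29 to -0.09 in the order given. Those lower under isotype included the histone chaperone Asf1b (log2 change -0.77 ± 0.23, adjusted p = 0.0239), the clamp-loader subunit Chtf18 (log2 change -0.78 ± 0.24, adjusted p = 0.024) and Rpa1, the large subunit of the single-strand binding protein (log2 change -0.49 ± 0.16, adjusted p = 0.0363). Leaving out single tumours ended the call of Asf1b in 4 of 16 fits, of Chtf18 in 2 and of Rpa1 in 9. Samhd1, an enzyme that breaks down deoxynucleotides, was the gene that rose, from 146.6 ± 27.9 CPM to 424.1 ± 120.2 CPM (log2 change 1.56 ± 0.24, adjusted p = 8.43e-05). In the isotype allografts it was the single call among the 52 (log2 change 1.28 ± 0.34, adjusted p = 0.0388). This call was lost in 6 of 8 leave-outs, with the identifier digit or Xist as a covariate and with only the 2 groups fitted. Of the genes of next smallest p, the mitochondrial thymidine kinase Tk2 (0.34 ± 0.15, log2 change ± SE) and the nuclease-helicase Dna2 (0.57 ± 0.27) were positive in the isotype primaries without passing. In the isotype allografts neither Cdc7, Rpa3 and Dut with negative values (-0.51 ± 0.21, -0.88 ± 0.36 and -0.57 ± 0.24) nor Mcm9 and Tk2 with positive ones (0.24 ± 0.11 and 0.33 ± 0.17) passed. Rrm2b, the p53-induced counterpart of Rrm2, had means of 17.5 to 22.7 CPM over the 8 groups and 0.18 ± 0.17 (log2 change ± SE) in the isotype primaries. Myeloid cells are known to express Samhd1, and 8 of 8 leukocyte genes were called higher in the same comparison, whose part in its level was not tested.

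Among 31 further G1/S control genes, 2 (6.45%) were lower and 1 higher after 20 Gy in the isotype primaries, a share near the 6.64% of all genes. There were also 2 lower and 1 higher in the anti-PD-1 primaries (beside 1.86% of all genes lower) and in the anti-PD-1 allografts (beside 0.828%), and 1 lower (3.23%, beside 0.744%) and 1 higher in the isotype allografts. Leave-outs gave 1 to 7 lower calls in the isotype primaries (7 without replicate 8 at 20 Gy), 1 to 4 in the anti-PD-1 primaries, 1 to 6 in the anti-PD-1 allografts (6 without replicate 4 at 20 Gy) and 0 to 2 in the isotype allografts. Ccna2, the S-phase cyclin, was lower under isotype in the primaries (log2 change -1.003 ± 0.25, adjusted p = 0.00699) and under anti-PD-1 in the allografts (log2 change -0.93 ± 0.24, adjusted p = 0.0402). In those allografts no gene of the list was called lower with all 48 tumours or with only the 2 groups in the fit. E2f4, a repressor E2F, was lower in the isotype primaries (log2 change -0.45 ± 0.13, adjusted p = 0.0199), a call lost without replicate 1 at 0 Gy or without replicate 3 at 20 Gy, and Cdkn1a was the gene that rose. Mybl2, which drives late S-phase genes, missed the threshold (log2 change -0.70 ± 0.25, adjusted p = 0.0585), which it passed in 4 of 20 alternatives. In the isotype allografts the inhibitor Cdkn1b (p27) was lower (log2 change -0.62 ± 0.15, adjusted p = 0.0278). That call was lost in 7 of the 8 leave-outs, with no filter, with the identifier digit and with all 48 tumours in the fit. Cdk4 did not pass (log2 change -0.58 ± 0.19, adjusted p = 0.105), but did with DESeq2 and without replicate 1 at 20 Gy. Other genes of small p did not pass either: Ccnd3 (0.26 ± 0.14, log2 change ± SE) and Rb1 (0.38 ± 0.22) in the isotype primaries, and Skp2 (-0.47 ± 0.14, called with DESeq2, with its size factors and without replicate 3 at 0 Gy), Ccnd2 (0.55 ± 0.23) and Ccnd3 (0.41 ± 0.17) in the isotype allografts. The medians of this list in the isotype allografts, anti-PD-1 allografts, isotype primaries and anti-PD-1 primaries were 0.05, -0.29, -0.33 and -0.27. Over the leave-outs they ran from -0.012 to 0.091, -0.36 to -0.15 (the latter without replicate 2 at 20 Gy), -0.36 to -0.24 and -0.38 to -0.19. That of the isotype allografts thus turned its sign, without replicate 4 at 0 Gy, and was -0.068 with the digit covariate.

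G2/M genes had lower medians than the members in each of the 4 comparisons by dose. All 25 had negative values in each, with medians of -0.32 and -0.76 in the allografts under isotype and anti-PD-1 and -0.81 and -0.83 in the primaries, where those of the members were -0.04, -0.34, -0.38 and -0.47. Calls numbered 2, 5, 18 and 12 of 25, all lower, beside 0.744%, 0.828%, 6.64% and 1.86% of all genes called lower. In the anti-PD-1 allografts DESeq2 called 15 of the 25, and the fits of all 48 tumours and of only the 2 groups called 0. In the isotype allografts DESeq2 called 4, and the fit of all 48 tumours and that with the identifier digit called 0. Leave-outs gave 0 to 3, 1 to 20 (20 without replicate 4 at 20 Gy, 1 without replicate 4 at 0 Gy), 11 to 24 (24 without replicate 8 at 20 Gy, 11 without replicate 5 at 20 Gy) and 6 to 23 (23 without the library labelled replicate 5 at 20 Gy). Their medians ran from -0.39 to -0.24, -1.05 to -0.58, -1.02 to -0.73 and -0.97 to -0.65 over those fits. Mki67, a marker of cycling cells, went from 159.7 ± 65.0 CPM to 90.4 ± 27.4 CPM in the isotype primaries (log2 change -0.80 ± 0.25, adjusted p = 0.0315), a call that was lost with no filter and in 8 of 16 leave-outs. The mean log2(CPM + 1) of the members minus that of the G2/M genes was taken in each tumour, a measure chosen after the values were seen and given as a description without a test. At 0 Gy it was -0.49 (range -0.61 to -0.40) in the isotype allografts, -0.51 (range -0.70 to -0.33) under anti-PD-1, -0.57 (range -0.78 to -0.41) in the isotype primaries and -0.51 (range -0.70 to -0.29) under anti-PD-1. At 20 Gy it was -0.21 (range -0.36 to 0.02), -0.04 (range -0.39 to 0.10), -0.08 (range -0.51 to 0.18) and -0.15 (range -0.48 to 0.16). The isotype allografts did not overlap between the doses. The other 3 pairs of groups overlapped. Irradiated tumours within the range of their unirradiated group were replicate 8 of the isotype primaries (-0.51), the libraries labelled replicate 5 (-0.48), replicate 2 (-0.42) and replicate 8 (-0.36) of the anti-PD-1 primaries, and replicate 4 of the anti-PD-1 allografts (-0.39).

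**Figure D4:**
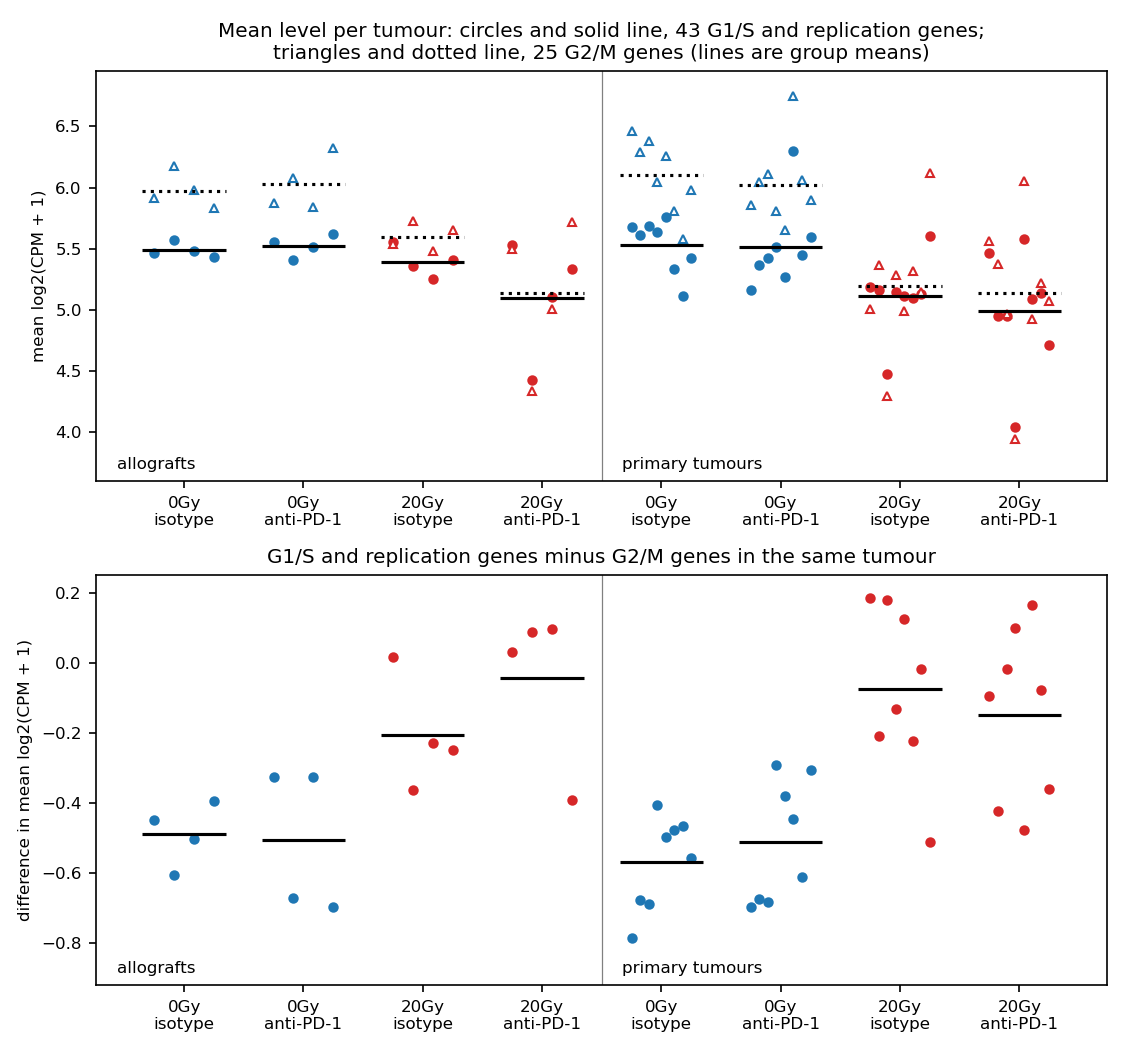
Mean log2(CPM + 1) of the 43 members (circles) and of 25 G2/M genes (triangles) in each tumour (upper panel, y axis), and the members' mean minus the G2/M mean (lower panel), by group on the x axis, with blue for 0 Gy and red for 20 Gy. The difference lies between -0.78 and -0.29 in the unirradiated tumours and above -0.29 in most irradiated ones.

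**Figure D5:**
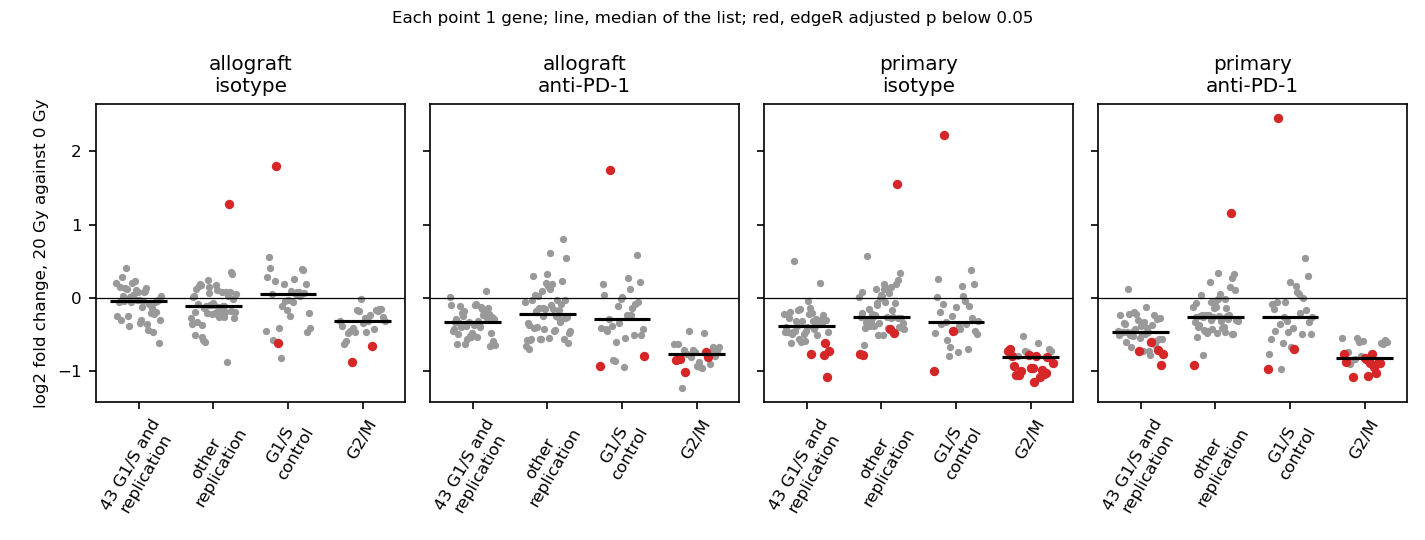
Log2 changes for 20 against 0 Gy (y axis) of the members, the other replication genes, the G1/S control genes and the G2/M genes (x axis) in the 4 comparisons. Points are genes, red points are called genes and lines are list medians, which are lowest for the G2/M genes in each panel.

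The members varied more between tumours in some groups, partly through single tumours. The median SD of log2(CPM + 1) within a group, members against 10710 genes, was 0.53 against 0.34 in the irradiated anti-PD-1 allografts, 0.53 against 0.38 in the irradiated anti-PD-1 primaries, 0.42 against 0.35 in the irradiated isotype primaries and 0.39 against 0.30 in the unirradiated anti-PD-1 primaries. In the other 4 groups it was 0.20 against 0.21, 0.20 against 0.26, 0.17 against 0.21 and 0.32 against 0.33 for the isotype and anti-PD-1 allografts at 0 Gy, the isotype allografts at 20 Gy and the isotype primaries at 0 Gy. Leaving out 1 tumour at a time, an alternative added after the data were seen, gave values of the members from 0.36 to 0.63 in the irradiated anti-PD-1 allografts, 0.36 to 0.57 in the irradiated anti-PD-1 primaries, 0.34 to 0.46 in the irradiated isotype primaries and 0.25 to 0.42 in the unirradiated anti-PD-1 primaries. The lowest of these came from 1 tumour in each group: 0.36 against 0.31 without allograft replicate 2, 0.36 against 0.34 without replicate 4, 0.34 against 0.33 without replicate 3 and 0.25 against 0.24 without replicate 6, in the same order.

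Some markers of other cells moved with dose as well. The summed level of 8 leukocyte genes was 813.8 to 1369.9 CPM at 0 Gy and 1341 to 3455 CPM at 20 Gy in the isotype primaries, 859.6 to 1423 and 789.7 to 3386 CPM under anti-PD-1, 1144 to 1926 and 2395 to 3832 CPM in the isotype allografts and 1058 to 2495 and 3175 to 4413 CPM under anti-PD-1. In that order 8, 3, 7 and 5 of the 8 genes were called higher after 20 Gy, and none was at 0 in any group. Of all genes 7.85%, 6.06%, 4.4% and 3.13% were called higher in these comparisons, the background also of the marker counts that follow. Of 10 macrophage genes 4, 3, 2 and 2 were called higher in the same order, and their summed level had medians of 2165 and 3153 CPM, 2334 and 3004 CPM, 2053 and 3534 CPM, and 2695 and 4571 CPM. Of the 10 mesenchymal and matrix genes 1, 1, 0 and 0 were called lower. Their sums had medians of 31606 and 20195 CPM, 34517 and 22062 CPM, 16015 and 16043 CPM, and 20426 and 10934 CPM, and the doses overlapped in all 4. Of 7 neutrophil genes tested in the primaries 2 were called higher under isotype and 3 under anti-PD-1, and of 8 in the allografts 0 and 1. Of 8 B cell genes 2, 1, 0 and 0 were called higher. Of 12 skeletal muscle genes 0 were called in any of the 4. Their sums had medians of 2001 and 1588 CPM, 1629 and 2146 CPM, 7081 and 5675 CPM, and 6079 and 6745 CPM, and replicate 4 of each irradiated primary group reached the highest sums, 50678 CPM under isotype and 87908 CPM under anti-PD-1. The part of these cell mixtures in the levels of the members was not tested.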

How the data were processed

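The analysis started from the counts the authors deposited for 48 sarcomas, 1 whole-number table by Ensembl gene with no normalisation. Per the submitters' processing notes, reads were trimmed with Trimmomatic 0.36, aligned with STAR to mm10 and counted with HTSeq. The annotation and the strand setting are not given in the sources used here, so counts of overlapping genes are uncertain. Per the labels' protocols, libraries were stranded and made from poly(A) RNA. The table's name refers to a first run. Symbols were matched for 36796 of 36854 genes, 58 had none, and 0 columns were of unlisted samples. No 2 tumours of a group had counts alike within sampling noise (chi-square over its degrees of freedom was 93.6 to 1095).

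Groups came from the labels. Replicate numbers follow accession order and pair nothing, and p-values set differences between groups against the spread between these tumours. In the allografts that spread is between tumours of 1 cell line. Genes were filtered with filterByExpr and scaled by TMM, and edgeR 4.0.16 (R 4.3.3, limma 3.58.1) gave quasi-likelihood F tests, with Benjamini-Hochberg adjustment across every gene of a fit. The fits held 16 allografts (17746 genes), 32 primaries (17770), the 12 tumours of the baseline comparison (17357) or all 48 (19327), for 15 comparisons in all. The SE is the size of the log2 fold change divided by the square root of F. Alternatives were DESeq2 1.42.0, its size factors, no filter, the identifier digit or Xist as a covariate, all 48 tumours, the 2 groups alone and leave-outs. Figures used Python 3.11.15, pandas 2.3.3, numpy 2.4.6 and matplotlib 3.10.9. The scripts were tested on simulated counts.

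The members and lists were chosen with earlier results of these data known. The genes named with values are, by role, those with the smallest and the largest p in the isotype primaries, the called members, Mki67, Cdkn1a and Rrm2b, and from the further replication and G1/S control lists the 3 of smallest p in each direction in the isotype comparisons by dose. Tk1, Mcm5, Prim1, Prim2, Cdk2 and Rfc3 were named after their values were seen.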

Additional observations from a re-analysis of the deposited data

Results flagged for a closer look

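A tumour far from the others of its group by Dixon's gap test was found in 21 of 152 groups of values. These were the members of smallest and largest p in each role, Rrm2, E2f2 and the members' mean, each in 8 groups. Other members, such as Tk1 and Mcm5, were not run. The values come from the same tumours and are not independent, so the count is not set against chance. Replicate 6 of the unirradiated anti-PD-1 primaries accounted for more of the 21 than any other tumour. It had a mean log2(CPM + 1) over the members of 6.30, against 5.16 to 5.59 in the other 7 tumours. In CPM it had 285.1 CPM of Rrm1 (others 127.2 to 175.8), 117.1 CPM of Tyms (others 30.8 to 65.1), 255.2 CPM of Pcna (others 95.7 to 156.7) and 130.8 CPM of Lig1 (others 61.9 to 93.5), all above the rest of the group. It also had 63.1 CPM of Cdc45 (others 29.2 to 42.2), 51.4 CPM of Mcm10 (others 17.5 to 27.3), 27.0 CPM of Orc1 (others 5.08 to 10.2), 72.4 CPM of Pola2 (others 36.9 to 47.1) and 62.3 CPM of Chaf1b (others 14.6 to 28.1). Its part in the calls of that comparison is given with the result.

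In the irradiated isotype primaries, replicate 3 had a mean of 4.47 over the members, below 5.10 to 5.60 in the others. Replicate 8 had 55.8 CPM of Mcm10 (others 8.84 to 27.7) and 82.1 CPM of Pola2 (others 21.0 to 40.2), and replicate 1 had 39.0 CPM of Ccne1 (others 13.9 to 25.5) and 66.0 CPM of Tyms (others 29.5 to 42.4), each the highest of its group. Replicate 7 of the unirradiated isotype primaries was low in Rrm1, with 121.5 CPM of Rrm1 (others 169.2 to 202.5).

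In the allograft groups of 4, replicate 1 of the irradiated isotype tumours was high with 198.2 CPM of Pcna (others 124.8 to 128.5) and 65.7 CPM of Tyms (others 43.1 to 44.6), and replicate 3 of the same group was low with 41.8 CPM of E2f1 (others 52.7 to 54.6). Replicate 1 of the unirradiated isotype tumours was high with 52.6 CPM of E2f1 (others 44.8 to 45.6), and replicate 1 of the unirradiated anti-PD-1 tumours was low with 25.6 CPM of Pola1 (others 34.7 to 36.3).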

How the results depend on the processing

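Members called after 20 Gy numbered 5 to 7 in the isotype primaries under every alternative other than leave-outs, and 8 to 16 in the primary combination. The anti-PD-1 primaries, with 5 calls, had 12 with DESeq2 and 12 with all 48 tumours in 1 fit, 3 with no filter on low counts, 3 with the identifier digit and 3 with Xist as a covariate, 1 with only the 2 groups compared, and 3 with the 2 tumours left out together. DESeq2 called 1 member in the isotype allografts and 2 in the anti-PD-1 allografts. The Cdk2 call of the allograft combination went to 0 calls with no filter, with Xist and with all 48 tumours, and the baseline comparison kept 1 call with no filter. Leaving out 1 tumour at a time gave 0 to 1 calls in the isotype allografts, 0 to 3 in the anti-PD-1 allografts, 0 to 3 in the allograft combination, 3 to 11 in the isotype primaries, 0 to 13 in the anti-PD-1 primaries, 6 to 22 in the primary combination and 0 to 2 at baseline, and 0 in the antibody comparisons and interactions. Where a leave-out changed a sign, log2 fold changes over the leave-outs of the isotype allografts were -0.11 to 0.023 for Chaf1b, -0.12 to 0.095 for E2f4, -0.17 to 0.020 for Lig1, -0.088 to 0.16 for Mcm2, -0.043 to 0.091 for Mybl2, -0.17 to 0.032 for Pola1, -0.013 to 0.13 for Pola2, -0.012 to 0.14 for Rpa1, -0.095 to 0.055 for Rrm2, -0.033 to 0.086 for Rrm2b and -0.098 to 0.17 for Uhrf1, and of the isotype primaries -0.033 to 0.15 for Ccnd2, -0.017 to 0.17 for Cdc7, -0.14 to 0.034 for Orc1 and -0.18 to 0.10 for Rpa3. In the isotype allografts Uhrf1 also turned to -0.0020 with DESeq2, -0.0021 with DESeq2-type size factors and -0.055 with the digit covariate, which likewise gave -0.15 for Mcm2, -0.057 for Pola2, -0.015 for Rrm2b and -0.076 for Rpa1. The cause of these changes was not tested. Further counts cover the genes of smallest and largest p in each role, Rrm2, E2f2, Mki67, Cdkn1a and Rrm2b. They also cover the genes of small p named from the further lists, but not Tk1, Mcm5, Prim1, Prim2, Cdk2 or Rfc3. In the isotype comparisons by dose, of 1280 values under alternatives (leave-outs, DESeq2, its size factors, no filter and the digit covariate) 1160 kept direction and side of the threshold, 55 lost the call, 16 gained one and 49 changed sign. For the other lists, lower calls under alternatives other than leave-outs, added after the data were seen, ran in the isotype allografts, anti-PD-1 allografts, isotype primaries and anti-PD-1 primaries from 0 to 4, 0 to 15, 13 to 24 and 9 to 17 of 25 G2/M genes. Those of 31 G1/S control genes ran from 0 to 4, 0 to 5, 2 to 6 and 1 to 4, and those of 52 further replication genes were 0, 0 to 7, 2 to 7 and 1 to 3. DESeq2 or the fit of all 48 tumours gave the highest count in each, apart from 24 with Xist for G2/M genes in the isotype primaries. The digit covariate could not be fitted at baseline, where all allografts had the digit 5 and all primaries the digit 4. No paired analysis was possible because replicates were numbered in accession order and the labels pair no tumours. Every member had 68 or more counts in every tumour, and the parts of counting error and of spread between tumours were not separated.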
